A study of Neurospora crassa with 12 samples.

Results

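The 5 genes described here encode the enzymes through which *Neurospora crassa* moves nitrogen between ammonium, glutamate and glutamine: am (NCU01195), gdh-1 (NCU00461), gln-1 (NCU06724), gln-2 (NCU04856) and en(am)-2 (NCU01744). They were taken by locus number, as 5 of the 9730 genes in the count table, and all 5 were among the 8805 genes with enough counts to be tested. Their transcript levels were followed in 12 RNA-seq libraries of mycelium, from 2 independent cultures in each of 6 groups. The strains were the wild type (WT) and Δclr-5, the deletion strain of NCU05383, which lacks the Zn2Cys6 transcription factor Clr-5 and is a single strain of the knockout collection. Mycelium grown first on glucose was moved to 2% Avicel, a crystalline cellulose, for an induction of 8 h by the labels, while the methods of the study give a shorter time. The 3 media differed in nitrogen: Vogel's salts with their ammonium nitrate (Avicel), or Vogel's salts without nitrogen to which 50 mM histidine (Avicel + histidine) or 50 mM leucine (Avicel + leucine) was added. Between these media, the added amino acid and the missing ammonium nitrate cannot be told apart. The question put to these genes is how their transcript levels differed between inorganic and amino acid nitrogen, and between the strains on each medium.

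Ammonium enters central metabolism by a pair of reactions. The NADP-specific glutamate dehydrogenase encoded by am joins ammonium to 2-oxoglutarate to make glutamate, and glutamine synthetase, encoded by gln-1 and gln-2, joins ammonium to glutamate to make glutamine. Glutamate synthase, encoded by en(am)-2, passes the amide nitrogen of glutamine to 2-oxoglutarate and so gives glutamate back. The NAD-specific glutamate dehydrogenase encoded by gdh-1 works mainly in the other direction, and releases ammonium and 2-oxoglutarate when glutamate or other amino acids are being broken down. In the reference genome (assembly NC12, strain OR74A), am spans chromosome V from 3200862 to 3203095, gln-1 chromosome V from 4393869 to 4397472, gdh-1 chromosome III from 3944102 to 3949450, gln-2 chromosome IV from 485244 to 488059 and en(am)-2 chromosome II from 2567182 to 2576313. No other annotated gene overlapped any of the 5 spans, although NCU04857 lies 61 bases from gln-2.

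Total counts were 16797962 to 20381308 per library. Counts of clr-5 were 27 to 63 in the 6 Δclr-5 libraries and 301 to 1035 in the 6 WT libraries, in the direction that the strain labels give. The strains also differed at the mating type locus, since matA-1 had 125 to 2049 counts in each WT library and 0 in each Δclr-5 library, where a count of 0 allows up to 3 counts per library. Of 9 conidiation genes taken as markers of spore formation, 8 were matched by symbol and none of these was at 0 in any library. Their summed level was 294.7 and 360.9 CPM (counts scaled to a common library size) in WT on Avicel, 4037 in culture 1 and 36310 in culture 2 of Δclr-5 on Avicel, and 59820 to 70030 in Δclr-5 on histidine. Most of the sum in these Δclr-5 groups was eas, the gene for the hydrophobin of the conidial coat, at 3293 and 34560 CPM on Avicel and at 59390 to 69560 CPM on histidine. In WT the sum was 679.2 to 957.4 CPM on histidine and 844.2 to 859.6 CPM on leucine, and in Δclr-5 on leucine 1695 to 1959 CPM. Without eas, the other 7 summed to 188.3 and 203.3 CPM in WT and to 743.8 and 1752 CPM in Δclr-5 on Avicel, to 140.1 and 141.4 CPM against 473.4 and 430.2 CPM on histidine, and to 843.7 and 858.7 CPM against 1455 and 1501 CPM on leucine. Of the 8 genes, 8 were called higher in Δclr-5 on Avicel, 4 on histidine and 2 on leucine, where 11.8%, 8.27% and 8.77% of all tested genes were. The part of these genes in the strain differences below was not tested. The distance between replicate cultures was widest for Δclr-5 on Avicel, so values without culture 1 or culture 2 of that group are given where they matter. In bulk mycelium, fewer cells of a type and less RNA per cell cannot be told apart.

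Transcript levels are CPM scaled by the trimmed mean of M values (TMM), given as culture 1 and culture 2 and as mean ± SD (n = 2 cultures). Differences are log2 fold changes from edgeR's quasi-likelihood test with an approximate standard error, and each adjusted p is by Benjamini-Hochberg over the 8805 genes. A gene was called higher or lower at an adjusted p under 0.05 with a log2 fold change of at least 0.5 in size. The 9 comparisons share libraries: each Avicel group enters both the strain comparison and the medium comparisons. Statements on overlap describe groups of 2 cultures and are no test, and the share of all genes without overlap was not computed. Such statements are therefore not read as traits of the genes described here.

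**Figure D1:**
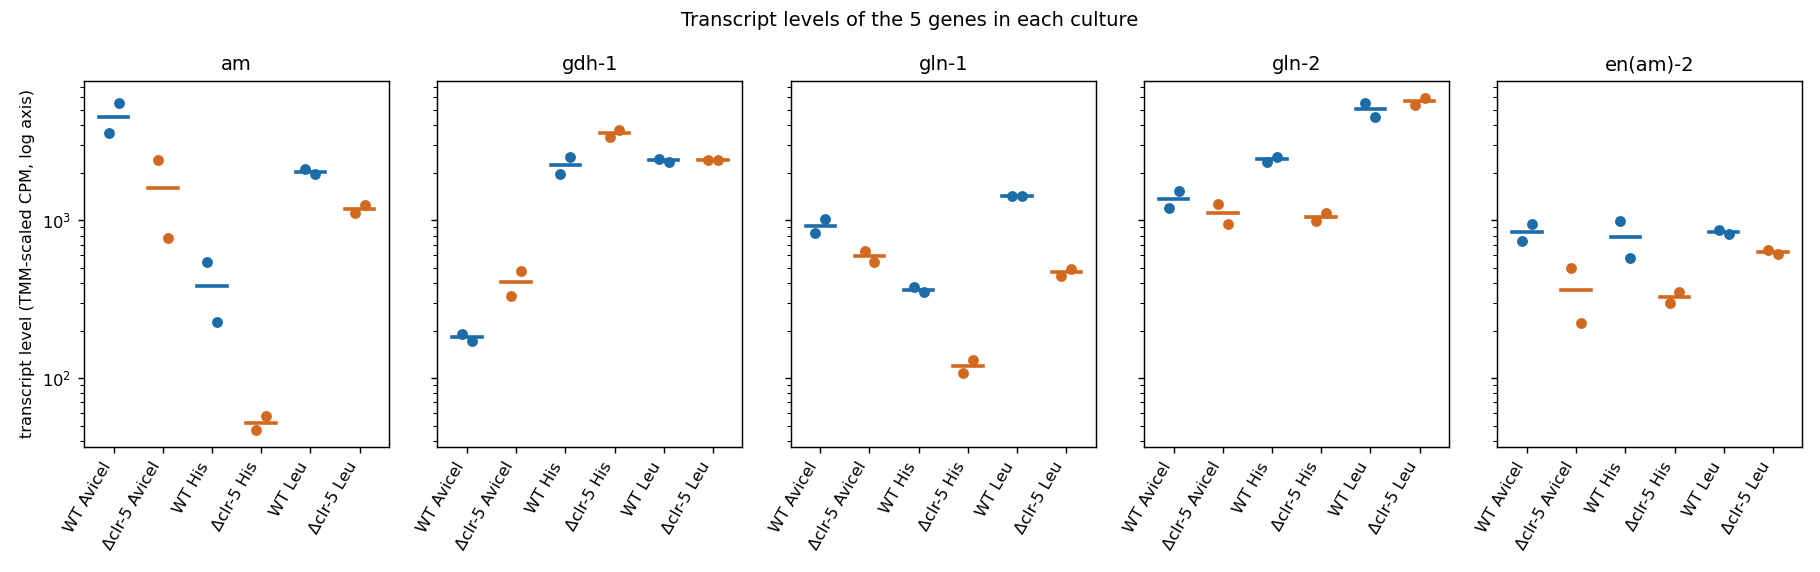
Transcript levels (TMM-scaled CPM, log axis) of the 5 genes in the 12 cultures, WT in blue and Δclr-5 in orange, with a point per culture and a bar at the mean of each group. The level of am ran from 46.64 in Δclr-5 on histidine to 5496 in WT on Avicel, and gdh-1 was lowest in both WT cultures on Avicel (170.6 and 191).

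The gene for the ammonium-fixing enzyme, am, had the widest range of the 5, with a 118-fold distance between its lowest and highest library. On Avicel its level was 3564 and 5496 CPM in WT (4530 ± 1370) and 2411 and 774 CPM in Δclr-5 (1593 ± 1160). On histidine it was 542.9 and 225.8 CPM in WT (384.3 ± 224) and 46.64 and 57.66 CPM in Δclr-5 (52.15 ± 7.79). On leucine it was 2098 and 1975 CPM in WT (2036 ± 87.1) and 1113 and 1253 CPM in Δclr-5 (1183 ± 98.9). Both strains were thus lowest on histidine, with no overlap between the strains on any medium, and in the order of the 6 groups only Δclr-5 on Avicel overlapped its neighbours, which were the 2 leucine groups.

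The am transcript was lower on histidine than on Avicel in both strains. The log2 fold change against Avicel was -3.56 in WT (SE 0.559, 11.8-fold lower, adjusted p = 0.000368) and -4.93 in Δclr-5 (SE 0.598, 30.5-fold lower, adjusted p = 6.23e-05). Against the same Avicel cultures, leucine gave -1.15 in WT (SE 0.512, adjusted p = 0.0909) and -0.43 in Δclr-5 (adjusted p = 0.529), neither of them called. DESeq2 called the WT leucine difference (adjusted p = 0.0249), and the Δclr-5 value changed sign with the Avicel culture that was kept, from -1.03 without culture 2 to 0.61 without culture 1.

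Between the strains, am was called lower in Δclr-5 on histidine, at -2.88 (SE 0.545, 7.37-fold lower, adjusted p = 0.00427). The estimate lay between -3.38 and -2.11 when each culture was left out, and without culture 1 of Δclr-5 on histidine the adjusted p was 0.0534. On Avicel the difference was -1.51 (SE 0.516) and missed the threshold (adjusted p = 0.0634), although both Δclr-5 cultures were below both WT cultures. That value shifted with the culture left out. It was -2.55 without culture 1 and -0.91 without culture 2 of Δclr-5, and -1.82 without culture 1 and -1.18 without culture 2 of WT. Culture 2 of Δclr-5 had the higher conidiation sum of that group, with or without eas, and the part of this in the am value was not tested. DESeq2 called the Avicel difference of am (adjusted p = 0.00743). On leucine it was -0.78 (95% interval -1.92 to 0.35, adjusted p = 0.311), and a fit to the 4 leucine libraries alone called it (adjusted p = 0.00281). The strain effect on histidine minus that on Avicel was -1.37 (adjusted p = 0.232) and was not called, although it was -1.98 without culture 2 of Δclr-5 on Avicel (adjusted p = 0.0316).

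The gdh-1 transcript, for the enzyme that releases ammonium from glutamate, was higher on both amino acids than on Avicel, and so moved opposite to am on histidine. On Avicel its level was 191 and 170.6 CPM in WT (180.8 ± 14.4) and 330.9 and 475.9 CPM in Δclr-5 (403.4 ± 103). On histidine it was 1967 and 2502 CPM in WT (2234 ± 378) and 3366 and 3733 CPM in Δclr-5 (3549 ± 259). On leucine it was 2449 and 2347 CPM in WT (2398 ± 72.8) and 2393 and 2398 CPM in Δclr-5 (2395 ± 3.82). All 8 amino acid cultures were above all 4 Avicel cultures. In the order of the groups, WT on Avicel was lowest, Δclr-5 on Avicel next and Δclr-5 on histidine highest, while WT on histidine and the leucine groups overlapped between them.

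The rise of gdh-1 on amino acids was called in each strain. Against Avicel, WT rose by 3.63 on histidine (SE 0.242, 12.4-fold, adjusted p = 5.92e-07) and by 3.73 on leucine (SE 0.244, 13.3-fold, adjusted p = 8.97e-07). In Δclr-5, which had a higher level on Avicel than WT, the rise was 3.14 on histidine (SE 0.237, 8.8-fold, adjusted p = 1.42e-06) and 2.57 on leucine (SE 0.231, 5.94-fold, adjusted p = 1.38e-05). These 4 calls held without any single culture. Between the strains, gdh-1 was the member that was higher in Δclr-5 on Avicel, at 1.16 (SE 0.222, 2.23-fold, adjusted p = 0.00529), and it stayed called without each of the 4 cultures (0.88 to 1.40), but not in a fit to those 4 libraries alone (adjusted p = 0.0563). On histidine it was 0.67 higher (SE 0.219, 95% interval 0.18 to 1.15), with an adjusted p of 0.0505 that missed the threshold, whereas it was called by DESeq2 (adjusted p = 0.00276), with RLE scaling in edgeR (0.68, adjusted p = 0.0434) and in a fit to the 4 histidine libraries alone (0.70, adjusted p = 0.02). On leucine the WT and Δclr-5 cultures overlapped, and the 95% interval of the difference was -0.48 to 0.48. The strain effect on histidine minus that on Avicel was -0.49 (SE 0.309, adjusted p = 0.316) and was not called. The strain effect on leucine minus that on Avicel was -1.16 (SE 0.31, adjusted p = 0.0564), and it was called by DESeq2 (adjusted p = 0.000795) and without culture 1 of Δclr-5 on Avicel (-1.40, adjusted p = 0.00343).

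The 2 dehydrogenases were set against each other within each library, as the ratio of their counts per kilobase of gene span. On Avicel, am exceeded gdh-1 by a ratio of 44.7 and 77.1 in WT, and of 17.4 in culture 1 and 3.89 in culture 2 of Δclr-5. On histidine, am was the lower of the pair in each culture, with ratios of 0.661 and 0.216 in WT and of 0.0332 and 0.037 in Δclr-5. On leucine the ratio was 2.05 and 2.01 in WT and 1.11 and 1.25 in Δclr-5. Per kilobase, the order of the 2 transcripts therefore turned round on histidine and not on leucine. The span includes introns, and without division by it gdh-1 was above am in the 4 leucine cultures too. On each medium both Δclr-5 ratios were below both WT ratios. These ratios do not depend on the scaling between libraries, and they were not tested.

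**Figure D2:**
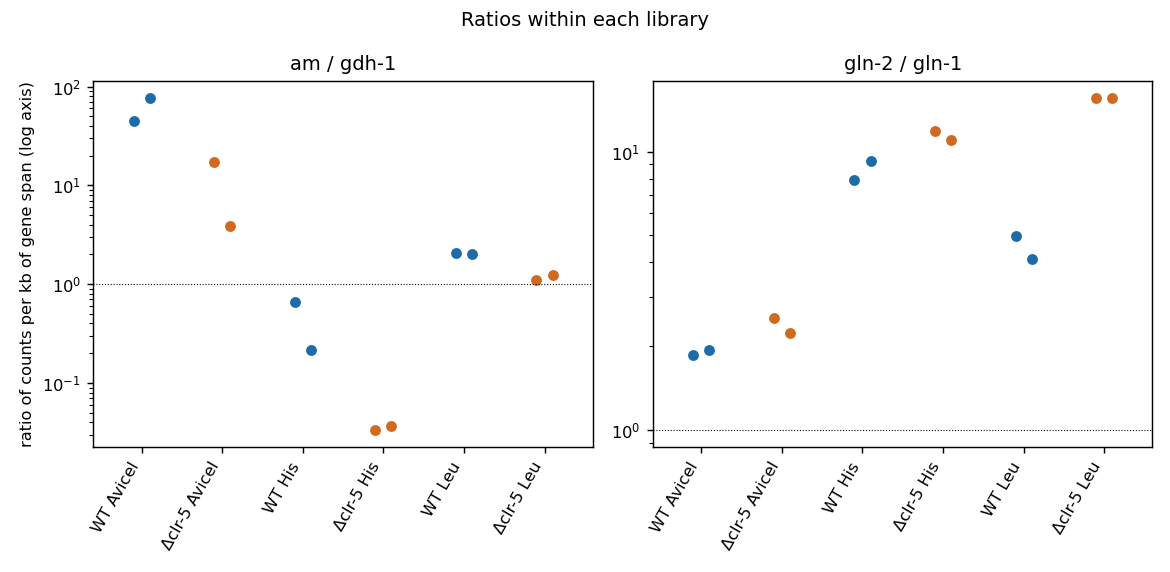
Ratio of am to gdh-1 (left) and of gln-2 to gln-1 (right) within each library, as counts per kilobase of gene span on log axes, with a point per culture (WT blue, Δclr-5 orange) and a dotted line at 1. The am to gdh-1 ratio is under 1 in the 4 histidine cultures alone, and the gln-2 to gln-1 ratio is above 1 in all 12 libraries, from 1.86 in a WT culture on Avicel to 15.6 in both Δclr-5 cultures on leucine.

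The glutamine synthetase genes moved together in some comparisons and apart in others. For gln-1 the levels on Avicel were 825.6 and 1015 CPM in WT (920.3 ± 134) and 639.3 and 542.9 CPM in Δclr-5 (591.1 ± 68.2). On histidine they were 377.1 and 349.2 CPM in WT (363.2 ± 19.7) and 107.6 and 129.4 CPM in Δclr-5 (118.5 ± 15.4). On leucine they were 1423 and 1417 CPM in WT (1420 ± 3.94) and 443.8 and 489.8 CPM in Δclr-5 (466.8 ± 32.5). None of the 6 groups overlapped its neighbour, and the order ran from Δclr-5 on histidine through WT on histidine, Δclr-5 on leucine, Δclr-5 on Avicel and WT on Avicel to WT on leucine. WT was thus highest on leucine, and Δclr-5 on Avicel. The absence of overlap describes these cultures and is no test, and the share of all genes without overlap was not computed.

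Transcript levels of gln-1 were lower in Δclr-5 on all 3 media, and gln-1 alone among the 5 was called in each. The log2 fold change was -1.62 on histidine (SE 0.177, 3.06-fold lower, adjusted p = 0.000121) and -1.61 on leucine (SE 0.177, 3.04-fold lower, adjusted p = 0.000233), and these held without any single culture. On Avicel it was -0.64 (SE 0.174, 1.56-fold lower, adjusted p = 0.0246), a call that was lost without culture 2 of either strain (adjusted p up to 0.134) and with scaling by library size alone (-0.43, adjusted p = 0.0727). Relative to Avicel, the strain effect was larger by -0.98 on histidine (SE 0.245, adjusted p = 0.0251) and by -0.97 on leucine (SE 0.245, adjusted p = 0.0477). Both of these were close to the threshold: the former was lost on leaving out any of 4 cultures (adjusted p up to 0.122) and the latter on leaving out any of 6 (adjusted p up to 0.195), and neither was called in a fit to the libraries of the comparison alone (adjusted p = 0.0712 and 0.0949).

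Between the media, gln-1 was lower on histidine than on Avicel, at -1.34 in WT (SE 0.176, adjusted p = 7.66e-05) and at -2.32 in Δclr-5 (SE 0.182, adjusted p = 1.8e-06). It was higher in WT on leucine than on Avicel, at 0.63 (SE 0.173, adjusted p = 0.0131). That call did not hold without WT Avicel culture 1 or without either leucine culture, with a value of 0.43 at the lowest. In Δclr-5 the leucine value was -0.34 (adjusted p = 0.141), with both leucine cultures below both Avicel cultures.

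For gln-2 the levels on Avicel were 1200 and 1538 CPM in WT (1369 ± 239) and 1261 and 947 CPM in Δclr-5 (1104 ± 222). On histidine they were 2331 and 2531 CPM in WT (2431 ± 141) and 992.2 and 1109 CPM in Δclr-5 (1050 ± 82.3). On leucine they were 5548 and 4542 CPM in WT (5045 ± 711) and 5399 and 5981 CPM in Δclr-5 (5690 ± 412). The leucine groups were highest and overlapped each other, WT on histidine stood alone below them, and at the bottom Δclr-5 on Avicel overlapped both WT on Avicel and Δclr-5 on histidine, which did not overlap each other.

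Levels of gln-2 were higher on leucine than on Avicel in both strains, by 1.88 in WT (SE 0.234, 3.68-fold, adjusted p = 9.03e-05) and by 2.37 in Δclr-5 (SE 0.238, 5.15-fold, adjusted p = 2.87e-05). They were also higher on histidine than on Avicel in WT, by 0.83 (SE 0.228, adjusted p = 0.0095), a call lost without WT Avicel culture 1 (0.63). For Δclr-5 the histidine value was -0.07 (95% interval -0.57 to 0.43, adjusted p = 0.802). The strains differed on histidine, where gln-2 was lower in Δclr-5 by -1.21 (SE 0.23, 2.31-fold, adjusted p = 0.00365, or 0.0511 without culture 1 of Δclr-5 on histidine). They overlapped on Avicel (-0.31, 95% interval -0.81 to 0.19) and on leucine (0.17, 95% interval -0.33 to 0.67). The strain effect on histidine minus that on Avicel was -0.90 (adjusted p = 0.0871) and was not called, while DESeq2 (adjusted p = 0.0238), library size alone (adjusted p = 0.028) and leaving out culture 2 of Δclr-5 on Avicel (adjusted p = 0.0216) gave a call.

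Per kilobase of gene span, gln-2 was above gln-1 in every library. The ratio was 1.86 and 1.94 in WT on Avicel, 7.91 and 9.27 in WT on histidine and 4.99 and 4.1 in WT on leucine. In Δclr-5 it was 2.52 and 2.23 on Avicel, 11.8 and 11 on histidine and 15.6 and 15.6 on leucine. It was thus higher in both Δclr-5 cultures than in both WT cultures on each medium, and lowest on Avicel in each strain. Only uniquely mapped reads entered the counts, so reads that matched both genes equally well are in neither.

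The glutamate synthase gene en(am)-2 had the narrowest range, 4.43-fold over the 12 libraries. On Avicel its level was 740.3 and 953.4 CPM in WT (846.9 ± 151) and 496 and 222 CPM in Δclr-5 (359 ± 194). On histidine it was 983 and 577.9 CPM in WT (780.5 ± 286) and 299.2 and 351.1 CPM in Δclr-5 (325.1 ± 36.7). On leucine it was 863.9 and 820.5 CPM in WT (842.2 ± 30.7) and 645.7 and 614.4 CPM in Δclr-5 (630 ± 22.2). The WT groups overlapped one another, and Δclr-5 was below WT on each medium with no overlap.

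No medium difference of en(am)-2 was called in either strain with TMM scaling of all 12 libraries. Against Avicel, WT gave -0.12 on histidine (95% interval -0.88 to 0.64) and -0.01 on leucine (95% interval -0.77 to 0.75). Δclr-5 gave -0.14 on histidine (95% interval -0.91 to 0.62) and 0.81 on leucine (adjusted p = 0.0854), the latter being called without culture 1 of Δclr-5 on Avicel (1.51, adjusted p = 0.000944) and with scaling by library size alone (1.06, adjusted p = 0.0189). Between the strains it was called lower in Δclr-5 on Avicel (-1.24, SE 0.349, 2.36-fold, adjusted p = 0.0297) and on histidine (-1.26, SE 0.349, 2.4-fold, adjusted p = 0.0255). Each call was lost without any of 3 of its 4 cultures, with adjusted p up to 0.134 on Avicel and up to 0.171 on histidine. On leucine the value was -0.42 (95% interval -1.18 to 0.35, adjusted p = 0.43). The strain effect minus that on Avicel was -0.03 on histidine (adjusted p = 0.98) and 0.82 on leucine (SE 0.487, adjusted p = 0.343). Neither difference was called.

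**Figure D3:**
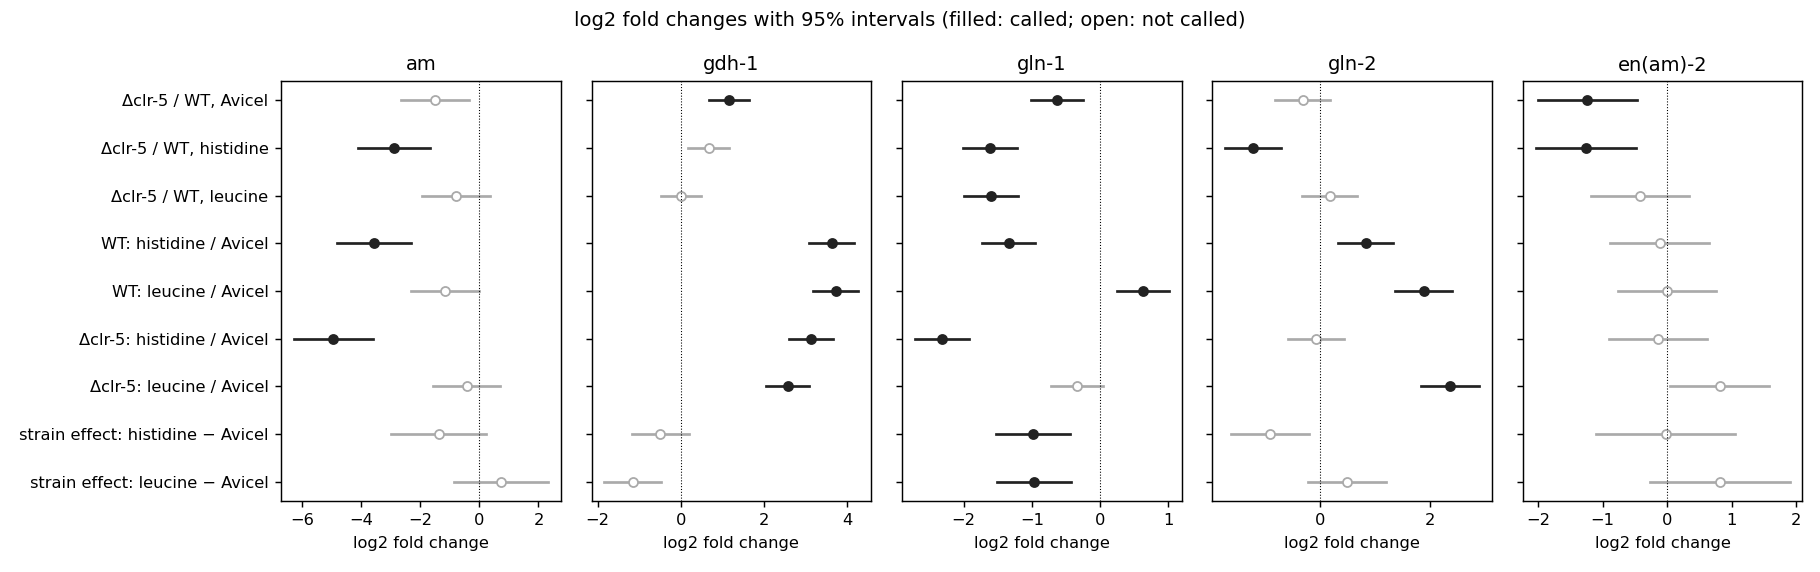
Log2 fold changes of the 5 genes in the 9 comparisons, with 95% intervals, filled where called and open where not, on a horizontal scale that differs between panels. The gdh-1 values against Avicel lie between 2.57 and 3.73, gln-1 is below 0 in each strain comparison, and the en(am)-2 values against Avicel are open throughout.

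Counted over the 5 genes, Δclr-5 against WT gave 2 lower and 1 higher on Avicel, where 8.37% of all tested genes were called lower and 11.8% higher. On histidine 4 of the 5 were lower, against 12.8% of all genes, and 0 were higher with edgeR under TMM scaling, against 8.27%. In that direction gdh-1 alone had an unadjusted p under 0.05, and it was called by DESeq2 and by edgeR with RLE scaling or with the 4 histidine libraries alone. On leucine 1 of the 5 was lower (all genes 10.7%) and 0 were higher (all genes 8.77%), with 0 higher also by DESeq2 and 0 at an unadjusted p under 0.05. The median log2 fold change of the 5 genes was -0.64, -1.26 and -0.42 on the 3 media in this order, beside -0.01, -0.03 and 0.03 over all tested genes.

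Against Avicel, WT on histidine gave 2 lower and 2 higher of the 5 (all genes 24.4% lower and 27.7% higher), and WT on leucine 0 lower and 3 higher (all genes 19.6% and 22.2%), with 1 lower by DESeq2 and 1 at an unadjusted p under 0.05, which was am. In Δclr-5, histidine gave 2 lower and 1 higher (all genes 27.6% and 27.2%). Leucine in Δclr-5 gave 0 lower and 2 higher (all genes 17.8% and 19.5%), with 0 lower by DESeq2 and 0 at an unadjusted p under 0.05. In WT, 4.44% of all tested genes had a larger change than gdh-1 on histidine, and 2.77% did on leucine.

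The difference of the strain effects between histidine and Avicel was called lower for 1 of the 5 genes, gln-1, and higher for 0 (all genes 9.03% and 5.32%, with 0 of the 5 higher by DESeq2 or at an unadjusted p under 0.05). The difference between leucine and Avicel was likewise called lower for gln-1 alone and higher for 0 (all genes 3.69% and 1.85%, with 0 of the 5 higher by DESeq2 or at an unadjusted p under 0.05). The 5 genes together took 0.291% to 1.19% of the counts of a library.

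The transcripts around these enzymes were followed with a partial list of 26 genes, all of them tested. They concern the entry of ammonium and urea, ammonium release, nitrate reduction, the uses of glutamate, transaminases, 2-oxoglutarate supply and nitrogen regulators. The 19 genes taken from the study's supplement all have locus numbers from NCU00106 to NCU01977. Genes of these pathways with higher numbers entered only by symbol, so the counts and medians hold for the listed genes alone. On Avicel, 4 of the 26 were lower in Δclr-5 and 1 was higher, where 8.37% and 11.8% of all tested genes were, and the list median was -0.40 beside -0.01 over all genes. Those lower were nit-3 for nitrate reductase (-1.07, adjusted p = 0.0163), a branched-chain aminotransferase gene (NCU00792, -0.94), a gene for the urease accessory protein UreD (NCU01246, -0.90) and the urea transporter gene NCU01977 (-0.69). The gene for glutamate decarboxylase (NCU00678) was higher by 1.40 (adjusted p = 0.0397).

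On histidine 3 of the 26 were called, all of them lower in Δclr-5, a share close to the 12.8% of all genes, and the list median was -0.16 beside -0.03. These were the urea transporter gene NCU01977 (-1.47, adjusted p = 0.000273), cpc-1, which encodes the activator of general amino acid control (-0.82), and the gene for the urease accessory protein UreG (NCU01511, -0.55). On leucine 7 were lower and 2 higher, where 10.7% and 8.77% of all genes were, and the list median was -0.14 beside 0.03. The lower ones included ser-7 for phosphoserine aminotransferase (-1.81, adjusted p = 0.000165), the aminotransferase gene NCU00792 (-1.55), pro-3 and ota, which act between glutamate, proline and ornithine (-1.52 and -0.92), and cpc-1 (-0.73).

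The ammonium transporter gene NCU01065 (annotated as MEP2) was among the 2 that were higher on leucine. Its level there was 27.27 and 20.43 CPM in WT and 54.82 and 63.64 CPM in Δclr-5, which was higher by 1.31 on the log2 scale (SE 0.18, adjusted p = 0.000869). On Avicel it was 33.19 and 43.02 CPM in WT and 48.1 and 43.31 CPM in Δclr-5 (0.26, adjusted p = 0.319). The strain effect on leucine exceeded that on Avicel by 1.05 (SE 0.252, adjusted p = 0.0409). Over the list, this difference was called for 2 genes in each direction (all genes 3.69% lower and 1.85% higher), with ser-7 at -1.74 and NCU01511 at -0.89 on the lower side and nit-3 at 1.74 on the higher side, whereas the difference between histidine and Avicel was called for NCU01511 alone (-0.83, all genes 9.03% lower).

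Between the media, the largest change in the list was that of nit-6, which encodes nitrite reductase, the enzyme that makes ammonium from nitrite. Its level was 624.3 and 908.8 CPM in WT and 1105 and 318.5 CPM in Δclr-5 on Avicel, and 0.494 to 5.52 CPM in the 8 amino acid cultures, to which no nitrate had been added. The log2 fold changes were -9.88 on histidine and -8.44 on leucine in WT, and -9.04 and -7.22 in Δclr-5. Expression of nit-3 also fell in WT on histidine (-1.89) and on leucine (-1.95), and in Δclr-5 on histidine (-1.55).

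Of the 26, WT had 11 lower and 8 higher on histidine (all genes 24.4% and 27.7%) and 4 lower and 10 higher on leucine (all genes 19.6% and 22.2%). Δclr-5 had 9 lower and 8 higher on histidine (all genes 27.6% and 27.2%) and 2 lower and 9 higher on leucine (all genes 17.8% and 19.5%). The list medians were -0.31, 0.17, -0.24 and 0.41 in this order, beside 0.08, -0.03, 0.03 and 0.02 over all genes. The transcript of cit-1 for mitochondrial citrate synthase, whose reaction leads towards 2-oxoglutarate, fell in both strains on both amino acids. Its log2 fold changes were -3.68 in WT and -2.86 in Δclr-5 on histidine, and -0.83 and -0.95 on leucine. On leucine, ser-7 rose by 3.99 in WT and by 2.24 in Δclr-5, and on histidine by 1.07 and 0.83. The urea transporter gene NCU01977 rose on leucine by 1.44 in WT and by 2.26 in Δclr-5. Its histidine value was 0.55 in WT, which was called higher, and -0.24 in Δclr-5, which was not called. The cpc-1 transcript rose in both strains on both amino acids, by 1.32 and 1.18 in WT and by 1.08 and 1.03 in Δclr-5 on histidine and leucine.

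**Figure D4:**
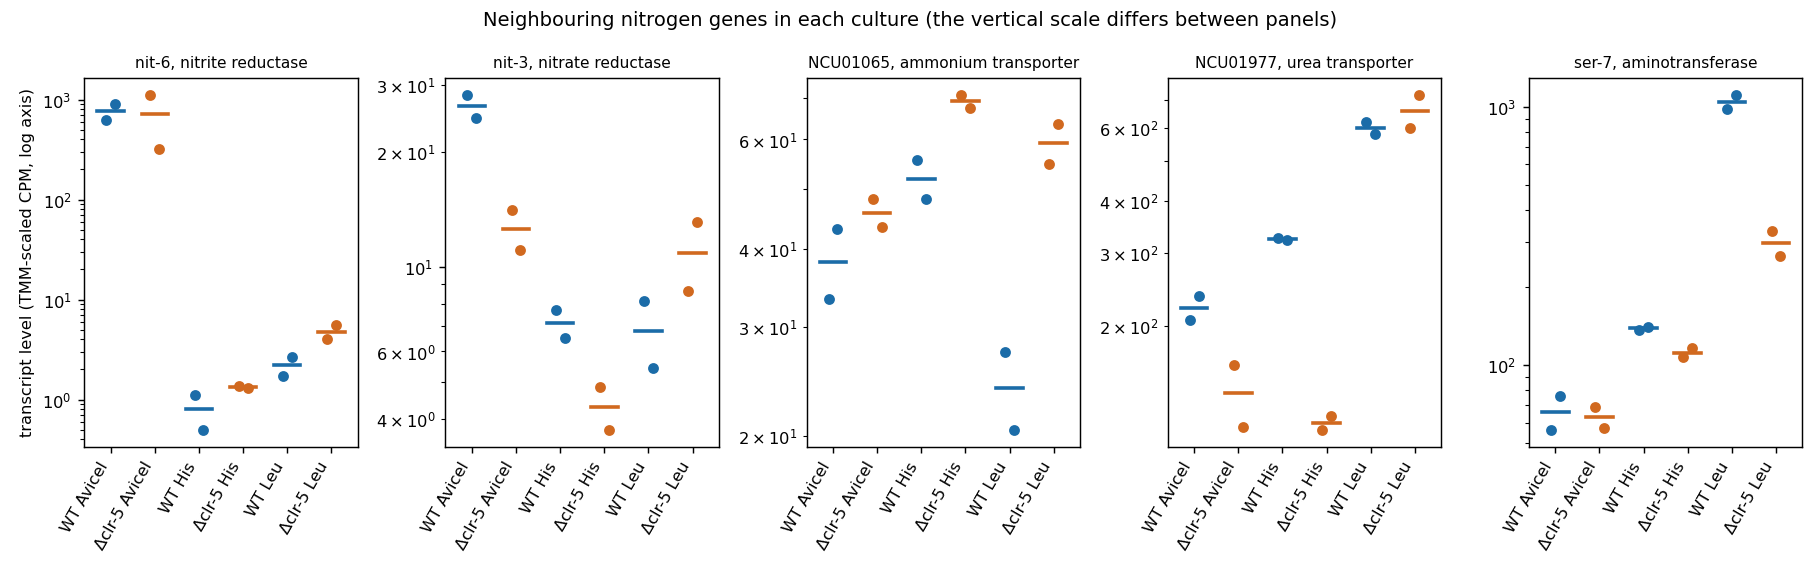
Transcript levels (TMM-scaled CPM, log axes that differ between panels) of 5 genes of the neighbouring list in the 12 cultures, with a point per culture and a bar at each group mean, WT blue and Δclr-5 orange. The nit-6 transcript is at 318.5 CPM or more in the Avicel cultures and at 5.52 CPM or less in the others, and both WT cultures on leucine lie lowest for the ammonium transporter gene (27.27 and 20.43 CPM).

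Compared over the 12 libraries, the profiles of the 5 genes fell apart into different shapes. Pearson's r of the log2 levels was 0.92 between am and gln-1, and -0.67 between am and gdh-1. It was 0.44 between gln-1 and gln-2, and between -0.11 and 0.62 for en(am)-2 with each of the others. These values describe 12 libraries that fall into 6 groups and are given with no test.

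Among 6835 genes of at least moderate level, the closest to am were NCU01420 (r = 0.987), NCU00727 and NCU07453, and the most opposite was NCU01813 (r = -0.988). For gdh-1 the closest were NCU03107 (r = 0.99), NCU04479 and NCU07242, for gln-1 they were ro-12 (NCU07196, r = 0.982), NCU09528 and NCU04790, and for gln-2 they were NCU06251 (r = 0.988), the urea transporter gene NCU01977 (r = 0.982) and mig-5. For en(am)-2 the likeness was weaker, with NCU06340 (r = 0.894), NCU04857 (r = 0.893), which is the gene next to gln-2, and NCU04418.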

How the data were processed

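The authors deposited raw counts per gene for the 12 libraries in a single table. The submitters' processing notes name TopHat2 2.0.8b for alignment and HTSeq 0.13.5 for counting of reads unique to 1 gene, and the strand setting is not given in the sources used here. From the counts, 8805 of 9730 genes passed filterByExpr and the other 925 were not tested. A robust quasi-likelihood model with TMM scaling (edgeR 4.0.16, R 4.3.3) was fitted with a term per group, which left 6 residual degrees of freedom and a common coefficient of biological variation of 0.174. Standard errors are the log2 fold change over the square root of F, and 95% intervals use the t distribution with the moderated degrees of freedom. Total counts of 16797962 to 20381308 (median 18400977) kept counting error small for the 5 genes. The spread between replicate cultures sets the precision, and the fit pools that spread over all groups, so the error of a comparison also reflects groups outside it.

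The 5 genes were taken by locus number. Of the neighbouring list, 19 genes came from annotations in the study's supplement and 7 from reference symbols. The 19 have locus numbers from NCU00106 to NCU01977, so the list does not cover its pathways in full. All genes of the list were counted. For the strain comparison on leucine and for the medium comparisons, only some of the called genes were named, and not strictly by size of change. The 5 genes drawn from that list as a plot were chosen after their values were seen. Genes of like profile are those with the highest Pearson correlation of log2 CPM (prior count 2) among genes with a mean log2 CPM of at least 3. The members and lists were chosen with earlier results of these data known. Levels of different genes were compared per kilobase of the span in the reference annotation only, and no sequence is shown. Alternatives were RLE scaling, library size alone, DESeq2 1.42.0, no filter, a fit to the libraries of each comparison alone, a replicate block and leaving out each culture.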

Additional observations from a re-analysis of the deposited data

Results flagged for a closer look

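The strain effect on gln-1 differed between media by a test of the difference itself, close to the threshold. On histidine the log2 fold change of Δclr-5 against WT was lower than on Avicel by -0.98 (edgeR, SE 0.245, adjusted p = 0.0251), and both Δclr-5 cultures were below both WT cultures on each of these media. On leucine it was lower than on Avicel by -0.97 (edgeR, SE 0.245, adjusted p = 0.0477), again with no overlap of the strains on either medium. The absence of overlap describes these cultures and is no further test, and its share over all genes was not computed. Both tests of the difference use the same 4 Avicel cultures and are not independent of each other. The histidine call was lost on leaving out any of 4 cultures (adjusted p up to 0.122) and in a fit to the libraries of the comparison alone (0.0712). The leucine call was lost on leaving out any of 6 cultures (adjusted p up to 0.195), with RLE scaling (0.0557), without the filter on low counts (0.0502), with the replicate block (0.0637) and in a fit to the libraries of the comparison alone (0.0949).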

How the results depend on the processing

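The precision of every value is limited by 2 cultures per group and by the distance between the Δclr-5 cultures on Avicel. The p-values rest on the spread between replicate cultures, pooled over the groups of a fit. No member changed direction in a called result under any alternative, and of 490 values of single members under an alternative 440 kept their side of the threshold, 33 lost the call and 17 gained it. The causes of these shifts were not tested.

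Of the 5 genes, 3 were called between the strains on Avicel, and 0 were when only the 4 libraries of that comparison were fitted with edgeR (4 at an unadjusted p under 0.05, and 4 by DESeq2 over all libraries). Over all genes, the fit to the 4 Avicel libraries called 322 in place of 1772. On leucine, where all-gene calls went from 1716 to 2418, the fit to the libraries of the comparison called 2 of the 5 instead of 1. For the difference of strain effects between histidine and Avicel, 1 was called, against 2 with library size alone, 2 with DESeq2 and 0 with the libraries of the comparison alone (2 at an unadjusted p under 0.05). For the difference between leucine and Avicel, 1 was called, against 2 with DESeq2 and 0 with RLE scaling, without the filter, with the libraries of the comparison alone and with the replicate block (2 at an unadjusted p under 0.05 in each).

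Leaving out each culture gave 1 to 4 members called between the strains on Avicel, 1 to 4 on histidine, 3 to 4 for WT on histidine, 2 to 3 for WT on leucine, 2 to 3 for Δclr-5 on leucine, and 0 to 3 for each difference of strain effects.

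Replicate numbers did not pair the cultures: the correlation of same-numbered deviations lay between -0.237 and 0.374 over 15 pairs of groups, and 2 of these were above 0.1. With the replicate block, the gln-1 difference between leucine and Avicel had an adjusted p of 0.0637.

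Scaling by library size alone moved the median of all genes from -0.01 to 0.21 between the strains on Avicel, from 0.03 to 0.29 on leucine and from 0.08 to 0.63 for WT on histidine.

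Among the genes called by that scaling, the share of higher calls was 80.9% in place of 58.4% between the strains on Avicel, 74.5% in place of 45% on leucine, 78% in place of 53.2% for WT on histidine, 66.3% in place of 53.1% for WT on leucine, 67.4% in place of 49.6% for Δclr-5 on histidine, 68.6% in place of 52.2% for Δclr-5 on leucine, and 19.3% in place of 37.1% for the difference between histidine and Avicel. Levels in CPM without TMM differed from the scaled ones by ratios of 0.797 to 1.18, and 20 of 30 group means moved by more than their SD.

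Over all genes, 1772 were called between the strains on Avicel, against 322 with the libraries of the comparison alone, 747 when WT culture 1 was left out and 2727 when Δclr-5 culture 1 was. Leaving out a culture gave 912 to 1287 in place of 1853 on histidine and 604 to 870 in place of 1716 on leucine. The fit to the libraries of the comparison gave 1960 in place of 3280 for Δclr-5 on leucine against Avicel, 695 in place of 1263 for the difference between histidine and Avicel, and 223 in place of 488 for that between leucine and Avicel, for which DESeq2 gave 1006. Leaving out a culture gave 471 to 2392 and 159 to 1389 for these differences, each highest without Δclr-5 Avicel culture 1.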
